A study of Mus musculus with 40 samples.

Results

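The fifth day of Pou5f1 suppression in mouse ES cells was examined by comparing the 3 arrays at 120 hr with the 3 arrays at 96 hr of the later time course. These 6 samples were chosen by the time in their labels and belong to the 18 arrays of that time course, out of 40 arrays in the whole series. The cells of both groups were ZHBTc4 ES cells (strain 129/Ola, male), a single cell line in which the Pou5f1 transgene, also called Oct4, is shut off by tetracycline (Tet). Both groups had been kept under Tet, for 96 and for 120 hr, and carried the label "gene knock in". A treatment text deposited with these arrays describes another construct, a Tcl1 vector in the line EBRTcH3, whereas the titles and the methods give ZHBTc4, which was used here. No array of cells without Tet at 96 or 120 hr was used here, so the time under Tet and the time in culture cannot be told apart. On each array the sample was labeled with Cy3 and Universal Mouse Reference RNA, a pool of 11 cell lines, with Cy5, and the value of a gene is log2(Cy3/Cy5). The methods name 3 replications at each time from an earlier experiment, and nothing says that these were separate cultures, so the p-values measure only the spread between these samples. The question was whether expression still moved on the fifth day, and which trophoblast genes were still rising.

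The transcription factor POU5F1 keeps ES cells pluripotent and holds back the trophoblast program, which begins when it is lost. Trophoblast is the lineage of the outer epithelium of the blastocyst, the trophectoderm, and later of most of the placenta. The factors Cdx2, Gata2, Gata3, Tfap2c and Elf5 act early in this lineage, and keratins, annexins and tight junction proteins build its epithelium. Trophoblast giant cells then leave the mitotic cycle, replicate their DNA without division, and secrete prolactin-family hormones, proteases and protease inhibitors.

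The 6 arrays were of similar brightness. Gene probes had a median Cy3 intensity of 596 to 728, against 367 to 377 for the local background, and between 16.3% and 22% of them lay under the level that 95% of an array's negative controls stay under, called here the level of the negative controls. That level was 506 to 529 on the 6 arrays but 627 to 653 at 0 hr, where 23.7% to 30.2% of probes lay under it. Spots left out as outliers numbered 9 to 34 on the 6 arrays and 5 to 591 on all 18, with most at 0, 24 and 48 hr. Changes from 0 hr rest on those arrays. Across probes the log2 ratios of the 6 arrays correlated with r of 0.974 to 0.995 between arrays of the same time and 0.961 to 0.981 between the times. Replicate 1 stood apart from replicates 2 and 3 at both times, so counts are also given without it. The suppressed gene, Pou5f1, had ratios of -0.07, -0.04 and -0.02 on the 96 hr arrays and 0.06, -0.03 and 0.11 on the 120 hr arrays, all below its mean of 2.12 at 0 hr, and its Cy3 signal (525 to 539 on average) was near the negative controls. Its last step was 0.09 ± 0.11 (SE) with overlapping groups, so the labeled suppression held on all 6 arrays.

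Expression still moved between 96 and 120 hr, but by small steps. A gene was called when its adjusted p (limma, Benjamini-Hochberg) was at most 0.05 and its change at least 1.5-fold. Of 20727 genes and unnamed transcripts tested, 87 were called higher at 120 hr (0.42%) and 32 lower (0.154%), and 95 of these 119 have a symbol. Among the 11275 genes with a symbol the shares were 0.585% higher and 0.257% lower. In 118 of the 119 the arrays of the 2 times did not overlap. The limits of a call make this likely and the share over all genes was not counted, so it is no separate support. By the adjusted p alone, 704 were higher (3.4%) and 471 lower (2.27%), or 4.72% and 3.48% of those with a symbol. The largest changes were 2.57-fold up, in a transcript without a symbol here, and 2.2-fold down, 4 genes passed 2-fold upward and 2 downward, and the median change of all genes was 0.01 on the log2 scale.

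The split between rises and falls depended on the scaling of the arrays. Rises were 73.1% of the calls, against 54.5% with median centring in place of loess, 61.5% with quantile normalization, 52.1% with a correction for fading of the Cy5 dye (bleaching), and 84.5% with the authors' normalized values. The authors' values could be tested for 16139 genes and unnamed transcripts only, against 20727 in the other settings. Without replicate 1 at both times, 102 genes were higher and 35 lower. Leaving out replicate 1 at 120 hr alone gave 143 higher and 36 lower.

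Each daily step called fewer genes than the one before it. From 0 to 24 hr 1568 were called either way (7.57%), from 24 to 48 hr 702 (3.39%), from 48 to 72 hr 570 (2.75%), from 72 to 96 hr 279 (1.35%), and from 96 to 120 hr 119 (0.574%). The median size of the change over all genes, without regard to sign, went from 0.13 on the first day to 0.06 on the fifth. Every step was tested in 1 fit of the 18 arrays, with a median standard error of 0.08 at each step. Adjacent steps share the 3 arrays of the time between them. The first step rests on the 0 hr arrays, where the level of the negative controls was higher.

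**Figure D1:**
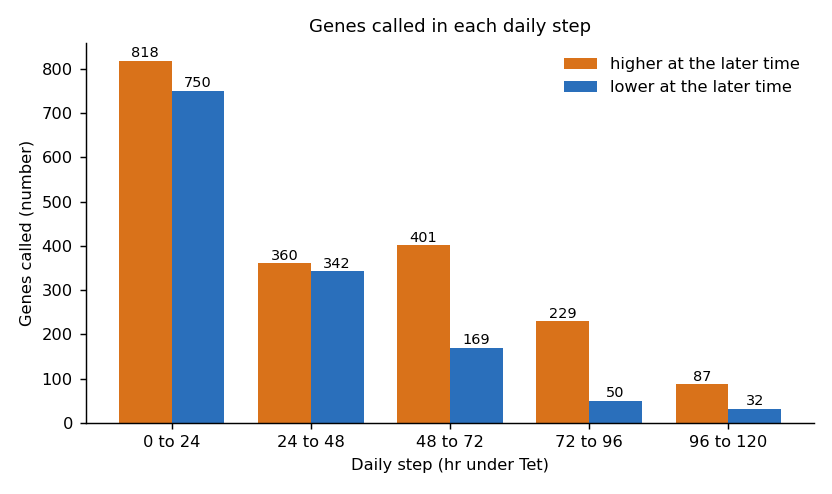
Number of genes called in each daily step of the later time course (y axis) against the step in hr under Tet (x axis), with higher genes in orange and lower genes in blue. The bars decline from 818 higher and 750 lower on the first day to 87 higher and 32 lower on the fifth.

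Of the trophoblast genes, 5 that had risen before were still rising, and a sixth, Ctsr, was called higher after a flat course. Lists of trophoblast transcription factors, of placental hormones, proteases and secreted factors, and of trophectoderm epithelial and adhesion genes held 118 genes that could be measured. Of these, 6 (5.08%) were called higher and 0 lower, where 0.585% of all genes with a symbol were called higher. By the adjusted p alone 21 (17.8%) were higher and 3 (2.54%) lower, where 4.72% and 3.48% of all genes with a symbol were. The 118 genes had a median change of 0.07, and 14 of them read near the negative controls at both times. In earlier steps the same lists gave 28, 26, 32 and 12 calls upward of 118 for the first to the fourth day. All genes and unnamed transcripts gave 818 of 20710, 360 of 20708, 401 of 20718 and 229 of 20727. Of the 118 genes, 56 were called higher at 96 hr than at 0 hr, where 10.6% of all genes and unnamed transcripts were. For these earlier comparisons the share among genes with a symbol was not counted. In the last step it was 0.585%, against 0.42% with unnamed transcripts included. The lists were chosen with earlier results of these data known, and the numbers describe these lists. In cultured cells that differentiate, fewer cells of a type and less RNA per cell cannot be told apart in any of these values.

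The largest trophoblast rises were those of a pair of protease inhibitors. Serpinb9g and Serpinb9e belong to a mouse cluster of serpin genes related to the granzyme B inhibitor Serpinb9, some of which are known from the placenta. Serpinb9g had ratios of 2.99, 3.37 and 3.39 (96 hr) and 3.81, 4.12 and 4.17 (120 hr), and every array at 120 hr lay above every array at 96 hr. The change was 0.78 ± 0.11 (SE), adjusted p = 3.21e-04, or 1.72-fold, after a step of 1.06 from 72 to 96 hr. Serpinb9e read 2.02, 2.28 and 2.17 on the 96 hr arrays and 2.94, 2.92 and 2.92 on the 120 hr arrays, with a change of 0.78 ± 0.10 (SE), adjusted p = 9.07e-05, and again no overlap. The related Serpinb9b changed by 0.50 ± 0.10 (SE) and passed the adjusted p alone (0.00801). Outside the lists, and named after its value was seen, Serpinb9c changed by 0.69 ± 0.10 (SE), adjusted p = 4.43e-04.

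The Serpinb9 genes lie close together on chromosome 13 and are near copies of each other, so that their probes may share signal. The 250 bases before the start of each gene are given from RefSeq (GRCm38.p6, plus strand, chr13:33484540-33484789 for Serpinb9g and chr13:33249358-33249607 for Serpinb9e). Capitals mark the bases that differ between them. These bases lie before the transcript, so their likeness says nothing of the probes.
Serpinb9g: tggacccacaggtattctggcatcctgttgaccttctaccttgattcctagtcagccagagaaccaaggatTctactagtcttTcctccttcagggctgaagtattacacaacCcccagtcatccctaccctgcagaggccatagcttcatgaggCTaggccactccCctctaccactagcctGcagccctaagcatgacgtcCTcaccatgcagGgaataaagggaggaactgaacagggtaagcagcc
Serpinb9e: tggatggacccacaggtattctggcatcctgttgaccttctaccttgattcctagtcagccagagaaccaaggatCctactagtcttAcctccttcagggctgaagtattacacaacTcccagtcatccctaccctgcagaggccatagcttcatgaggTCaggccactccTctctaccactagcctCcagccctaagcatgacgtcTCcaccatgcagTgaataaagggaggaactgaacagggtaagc
The windows overlap in 246 bases, of which 236 (95.9%) are identical. Whether the probes of these genes share signal was not tested. The windows from 250 bases before to 50 after the start of Serpinb9g, Serpinb9e, Lgals3 and all 3 starts of Gsn were also searched on both strands for AGATAA and TGATAA, bound by GATA factors, and for GCCNNNGGC, bound by AP-2 factors. None of these letters was found there, while 11.2%, 9.1% and 16.6% of 32851 windows of the table hold them.

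The epithelial genes that were still rising encode proteins of the membrane and the actin cytoskeleton. Gsn encodes gelsolin, which cuts and caps actin filaments, and its ratios were 0.48, 0.53 and 0.47 (96 hr) and 1.30, 1.24 and 1.20 (120 hr). The groups, with SDs of 0.03 and 0.05 (n = 3 each), did not overlap, and the change was 0.75 ± 0.12 (SE), adjusted p = 0.00139. Anxa1, an annexin that binds membranes in the presence of calcium, read 0.51, 0.53 and 0.37 on the 96 hr arrays and 1.04, 1.09 and 1.07 on the 120 hr arrays. Its change was 0.60 ± 0.08 (SE), adjusted p = 1.45e-04, just past the 1.5-fold limit. Lgals3 encodes galectin-3, which binds sugars at the cell surface. It had ratios of 0.87, 1.07 and 0.99 (96 hr) and 1.44, 1.71 and 1.72 (120 hr) and a change of 0.64 ± 0.09 (SE), adjusted p = 3.06e-04, without overlap.

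These 5 genes had made their largest step from 48 to 72 hr. From 0 to 96 hr the log2 changes were 3.37 for Serpinb9g, 2.37 for Serpinb9e, 4.54 for Gsn, 4.79 for Anxa1 and 2.94 for Lgals3. On the first day the changes had been 0.11, -0.002, 0.20, 0.38 and -0.95, and from 48 to 72 hr they were 2.13, 1.67, 1.83, 2.37 and 1.99. For none of the 5 did the test of the last step against the step before pass (adjusted p of 0.635 to 1).

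The sixth gene, Ctsr, had a different course. It encodes cathepsin R, a placental protease of the cathepsin L family. Its ratios were -0.01, 0.02 and 0.04 on the 96 hr arrays and 0.50, 0.63 and 0.69 on the 120 hr arrays, with a change of 0.59 ± 0.06 (SE), adjusted p = 2.65e-05, but its change from 0 to 96 hr had been 0.10. Its Cy3 signal was 518 on average at 96 hr, where 2 of the 3 arrays were above the negative controls, and 565 at 120 hr. The call was lost in 6 alternatives, among them the fits without replicate 1 at 96 hr (0.57) and without replicate 3 at 120 hr (0.55), both under 1.5-fold, and the Cy3 signal alone (0.53, adjusted p = 0.119).

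Calls of the trophoblast genes near 1.5-fold depended on the scaling. Serpinb9g and Serpinb9e kept their calls in every alternative tried other than the 2-fold limit, under which 0 trophoblast genes were called. Gsn lost its call with median centring (0.52, adjusted p = 0.105) and Lgals3 with median centring, quantile normalization and the bleaching correction (0.49 to 0.54). Anxa1 lost its call in 5 alternatives, among them the bleaching correction (0.51, adjusted p = 0.0146) and the fit without replicate 3 at 96 hr (0.55).

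**Figure D2:**
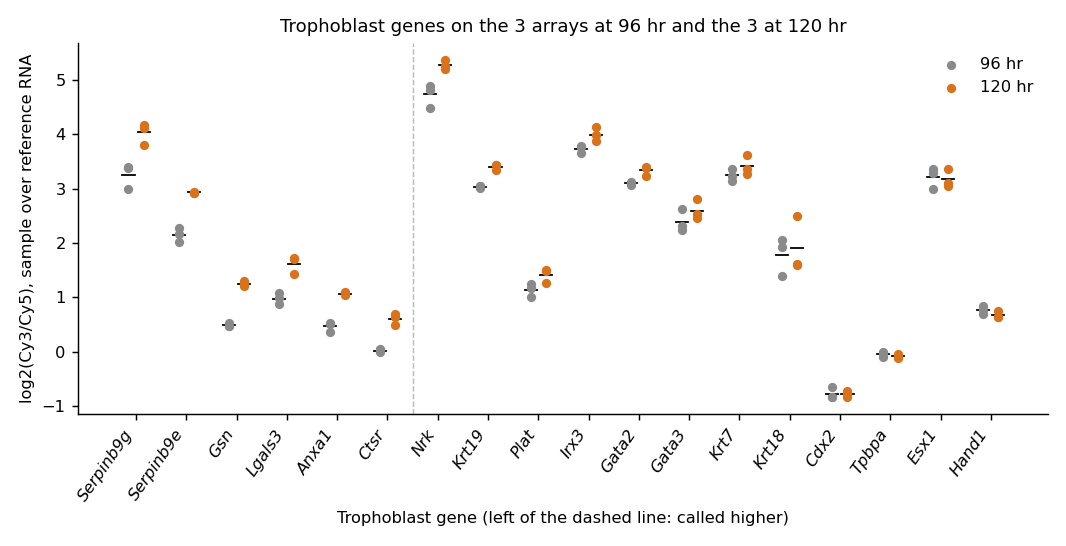
Log2(Cy3/Cy5) of 18 trophoblast genes (y axis, 1 column of points per gene on the x axis) on the 3 arrays at 96 hr (gray) and the 3 at 120 hr (orange), with short black lines at the means. Left of the dashed line, the 6 genes called higher have no overlap between the times, while the genes on the right were not called, Krt18 was saturated and the Cdx2 probe was not responsive.

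Of the 27 trophoblast transcription factors 0 were called (1 with the Cy3 signal alone), and 4 passed the adjusted p alone, all upward (14.8%), where 4.72% of all genes with a symbol passed upward. With median centring 0 passed. Gata2, which together with Gata3 acts in early trophoblast and in the control of placental hormone genes, had ratios of 3.13, 3.11 and 3.06 (96 hr) and 3.38, 3.24 and 3.39 (120 hr). The arrays did not overlap, and the change was 0.24 ± 0.05 (SE), adjusted p = 0.0122, or 1.18-fold. The others were Bhlhe40 with 0.33 ± 0.08 (SE), adjusted p = 0.0264, Pparg, needed for the placental labyrinth, with 0.30 ± 0.07 (SE), adjusted p = 0.0174, and Elf5, a factor of trophoblast stem cells, with 0.24 ± 0.06 (SE), adjusted p = 0.0189. The median of the list was 0.12.

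For well-known trophoblast factors that were not called, the last step is given by its interval. The 95% interval was -0.02 to 0.43 for Gata3, 0.10 to 0.42 for Irx3, -0.34 to 0.24 for the X-linked placental homeobox gene Esx1 and -0.32 to 0.14 for the giant cell factor Hand1. From 0 to 96 hr Gata3 had changed by 3.90, Irx3 by 3.87 and Esx1 by 2.77, all called higher, and Hand1 by 0.58. The Cy3 signal of Hand1 (635 at 96 hr and 585 at 120 hr) was not far above the negative controls. The 4 upper bounds lie under 1.5-fold, but with the Cy3 signal alone Irx3 was called higher (0.71, adjusted p = 8.04e-05), and its Cy5 signal, from the reference, had moved by 0.32. The probe of Cdx2 was described by the study as not responsive, so its values bound nothing.

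The keratins gave no call. Krt19 read 3.04, 3.05 and 3.02 on the 96 hr arrays and 3.44, 3.35 and 3.43 on the 120 hr arrays and passed the adjusted p alone, with 0.37 ± 0.08 (SE), adjusted p = 0.0098. Krt7 had an interval of -0.01 to 0.34 with overlapping arrays. Krt18 was saturated on all 6 arrays, so its level had only a lower bound and its last step was not measured. Aqp3, a water and glycerol channel of the trophectoderm list, read 3.22, 3.46 and 3.34 (96 hr) and 3.99, 3.85 and 3.97 (120 hr), without overlap, but its change of 0.59 ± 0.19 (SE) did not pass (adjusted p = 0.0837).

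Among placental hormones and secreted factors, 3 of 50 genes were called higher (the serpins and Ctsr), 10 passed the adjusted p upward (20%) and 2 downward (4%), and the median was 0.04, where 0.585% of all genes with a symbol were called higher and 4.72% passed upward, and 3.48% passed downward. Nrk, an X-linked kinase of the placenta, read 4.48, 4.89 and 4.82 on the 96 hr arrays and 5.25, 5.20 and 5.37 on the 120 hr arrays and changed by 0.55 ± 0.13 (SE), adjusted p = 0.0163, just under 1.5-fold. It was called with the processed signals (0.82), with the authors' values (0.82) and without replicate 2 or replicate 3 at 96 hr. Ctsl, a lysosomal protease, changed by 0.54 ± 0.10 (SE), adjusted p = 0.00278. Plat, the tissue plasminogen activator, had an interval of 0.09 to 0.47.

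Hormones of the giant cells stayed close to background. Prl2c2, a proliferin, read -1.51, -1.70 and -1.92 (96 hr) and -1.35, -1.31 and -1.37 (120 hr), with a change of 0.37 ± 0.09 (SE), adjusted p = 0.0246, at a mean Cy3 signal of 533 and 557. Prl7d1, also a prolactin-family gene, changed by 0.49 ± 0.09 (SE), adjusted p = 0.00248 from a level at which 2 of 3 arrays were above the negative controls. Tpbpa, a marker of spongiotrophoblast, had an interval of -0.17 to 0.08. Prl3d1, Krt8 and Mki67 were not analysed here.

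Flt1, the receptor of vascular endothelial growth factor that placental cells secrete in soluble form, went the other way. Its ratios were 0.81, 0.60 and 0.71 on the 96 hr arrays and 0.33, 0.04 and 0.04 on the 120 hr arrays, and the arrays did not overlap. It had risen by 0.62 from 72 to 96 hr and then changed by -0.57 ± 0.10 (SE), adjusted p = 0.00248, just short of 1.5-fold. The difference between the steps was -1.19 ± 0.18 (SE, adjusted p = 0.007).

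Genes of cell division were lower as a group. Of 26 proliferation genes 25 had a lower mean at 120 hr, 13 passed the adjusted p downward (50%, against 3.48% of all genes with a symbol), 0 passed upward, and 1 was called. The median of the list was -0.36, and 0.257% of all genes with a symbol were called lower. Birc5 encodes survivin, which acts in chromosome segregation and against cell death. It read -0.20, -0.14 and -0.14 (96 hr) and -0.94, -0.85 and -0.90 (120 hr), and its change was -0.74 ± 0.06 (SE), adjusted p = 2.59e-06. Top2a, the topoisomerase that untangles replicated chromosomes, changed by -0.51 ± 0.07 (SE), adjusted p = 3.96e-04 from -0.25, -0.19 and -0.12 to -0.77, -0.63 and -0.69. Ccnb1, the mitotic cyclin B1, changed by -0.47 ± 0.09 (SE), adjusted p = 0.00584. The medians of the list for the first to the fourth day were 0.27, -0.31, -0.28 and -0.13. With median centring the median was -0.43, 0 genes passed and Birc5 was not called (adjusted p = 0.051).

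Of 18 genes of the endocycle and cell cycle inhibitors 0 were called. Ccne1, the cyclin E1 that drives entry into DNA replication, read 1.37, 1.36 and 1.35 on the 96 hr arrays and 1.07, 0.99 and 0.92 on the 120 hr arrays and fell by 0.37 (adjusted p = 7.64e-04), which is 1.29-fold. Gmnn encodes geminin, the inhibitor of a further round of replication, and changed by -0.37 ± 0.09 (SE), adjusted p = 0.0274. Rb1, the retinoblastoma gene, went upward by 0.52 ± 0.14 (SE), adjusted p = 0.0382. Cdkn1c, the p57 inhibitor known from giant cells, was at 4.51, 4.30 and 4.21 (96 hr) and 4.67, 4.26 and 4.38 (120 hr), with an interval of -0.15 to 0.35.

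ES cell genes had reached low levels and mostly stayed there. Of 36 pluripotency genes 31 were called lower at 96 than at 0 hr, as were 1504 of all 20720 genes and unnamed transcripts. In the last step 1 was called lower, 4 passed the adjusted p downward (11.1%) and 0 upward (1 with the replicate block), with a median of 0.001. Of all genes with a symbol 0.257% were called lower, 3.48% passed downward and 4.72% upward. Stmn2, a stathmin that acts on microtubules, read -2.53, -2.67 and -2.71 on the 96 hr arrays and -3.11, -3.26 and -3.35 on the 120 hr arrays, with a change of -0.60 ± 0.07 (SE), adjusted p = 4.64e-05. Its call was lost under 1.5-fold in 4 alternatives, among them the fits without replicate 1 at 96 hr and without replicate 3 at 120 hr (-0.55 in both). Sox2, the partner factor of POU5F1, was at 1.55, 1.82 and 1.61 (96 hr) and 1.17, 1.21 and 1.03 (120 hr) and changed by -0.53 ± 0.09 (SE), adjusted p = 0.00278, or 1.44-fold, at a Cy3 signal of 696 and 592. It was called with quantile normalization, with an offset of 0, with the bleaching correction and without replicate 1 at both times. Tbx3 changed by -0.49 ± 0.06 (SE), adjusted p = 1.01e-04, whereas Nanog had an interval of -0.44 to 0.01.

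Several actin and serum response genes that had risen by 96 hr were lower at 120 hr. These genes encode contractile and stress fiber proteins and early targets of growth factors, many of which are controlled by the serum response factor. The list was drawn up after the calls were seen, so its counts only describe it. Of 35 genes measured 8 were called lower and 0 higher, 12 passed the adjusted p downward and 1 upward, and the median was -0.10, where 0.257% of all genes with a symbol were called lower and 3.48% passed downward. From 0 to 96 hr 23 of the 35 had been called higher, with a median of 1.27, where 10.6% of all genes and unnamed transcripts were called higher.

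Acta1, which encodes skeletal muscle actin, had the largest fall of all called genes. Its ratios were 2.22, 2.10 and 2.13 on the 96 hr arrays and 1.23, 0.97 and 0.84 on the 120 hr arrays, far apart, with a change of -1.14 ± 0.09 (SE), adjusted p = 2.01e-06, or 2.2-fold. It had risen by 0.67 from 72 to 96 hr, and the steps differed by -1.80 ± 0.16 (SE, adjusted p = 6.76e-05). Ccn1, a secreted matrix protein also called Cyr61, read -0.47, -0.07 and 0.10 (96 hr) and -1.26, -0.98 and -1.17 (120 hr) and changed by -0.99 ± 0.12 (SE), adjusted p = 1.15e-04. Thbs1, thrombospondin-1, was at -0.49, -0.49 and -0.39 on the 96 hr arrays and -1.23, -1.20 and -1.29 on the 120 hr arrays, with a change of -0.78 ± 0.08 (SE), adjusted p = 1.21e-05. Neither of these had overlapping arrays.

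Further called genes were Tagln (transgelin, -0.70 ± 0.18 SE, adjusted p = 0.0279), Myl9 (a myosin light chain, -0.67 ± 0.11 SE, adjusted p = 0.00172) and Tnfrsf12a (the TWEAK receptor, -0.65 ± 0.07 SE, adjusted p = 3.89e-05). All of these 6 list members were called higher at 96 than at 0 hr, but from 72 to 96 hr only Acta1 and Thbs1 passed upward (0.67 and 0.27), and Myl9 (-0.08) and Tnfrsf12a (-0.01) had moved little. The call was lost for Tnfrsf12a with median centring (adjusted p = 0.07) and for Myl9 with the Cy3 signal alone (a change of -0.58). Ier2, an immediate early gene, and Csrp2, a LIM protein, had not risen but fallen from 0 to 96 hr (-3.34 and -1.45). From 96 to 120 hr they changed by -0.65 ± 0.07 (SE), adjusted p = 1.43e-05 and by -0.59 ± 0.05 (SE), adjusted p = 2.98e-06, and both were called lower. Tagln lost its call in 7 alternatives, among them leaving out any array but replicate 1 at 120 hr (adjusted p = 0.0752 to 0.137). Tubb6, a beta-tubulin that is not on the list, read 1.40, 1.29 and 1.34 (96 hr) and 0.81, 0.64 and 0.33 (120 hr) and changed by -0.75 ± 0.08 (SE), adjusted p = 4.04e-05. Not all members fell: Fos changed by 0.47 ± 0.09 (SE), adjusted p = 0.00444, and the cytoplasmic actins Actb and Actg1 by -0.06 and 0.28, neither of which passed.

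The last step differed from the step before in 34 of 20727 genes (0.164%), 10 upward and 24 downward. This test compares the change from 96 to 120 hr with that from 72 to 96 hr, and it uses the arrays at 96 hr in both. Genes among the largest differences, named after their values were seen, were Acta2, smooth muscle actin, which had risen by 0.86 and then changed by -0.52 (difference -1.39 ± 0.19, adjusted p = 0.00255), and a pair of epithelial genes that stopped. Emp1, an epithelial membrane protein, had risen by 0.93 and then changed by -0.02 ± 0.05 SE (difference -0.95 ± 0.09, adjusted p = 6.76e-05). Anxa2, an annexin like Anxa1, had risen by 1.01 and then changed by 0.15 ± 0.09 SE (difference -0.86 ± 0.16, adjusted p = 0.039). The count was 5 with median centring and 12 with the bleaching correction.

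**Figure D3:**
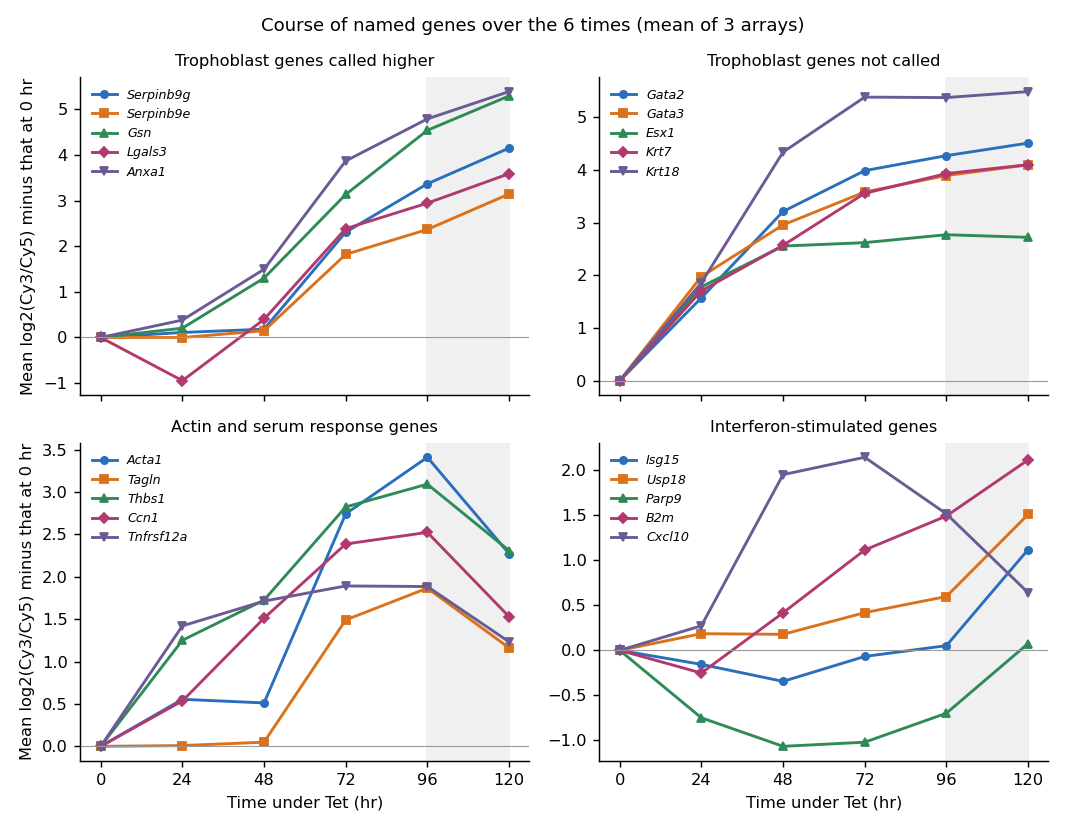
Mean log2(Cy3/Cy5) of 3 arrays minus that at 0 hr (y axis) over the time under Tet in hr (x axis) for named genes in 4 panels, with the fifth day shaded. Late trophoblast genes still climbed in the shaded interval, the factors and keratins of the second panel (Krt18 saturated) moved less, the actin and serum response genes turned down, and Isg15 rose in it.

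Some genes of the interferon response rose and 1 fell. Interferons induce a set of antiviral genes through transcription factors that bind the interferon-stimulated response element (ISRE). This list, too, was drawn up after the calls were seen. Of its 35 measured genes 5 were called higher and 1 lower, 10 passed the adjusted p upward and 1 downward, and the median was 0.14, where 0.585% of all genes with a symbol were called higher and 4.72% passed upward. Downward, 0.257% of all genes with a symbol were called and 3.48% passed. With the bleaching correction 3 genes of the list were called higher and 4 passed upward.

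Isg15, a ubiquitin-like protein that is attached to other proteins, had the largest rise of the called genes with a symbol. Its ratios were -0.70, -0.82 and -0.89 on the 96 hr arrays and 0.32, 0.18 and 0.30 on the 120 hr arrays, with a change of 1.07 ± 0.08 (SE), adjusted p = 1.24e-06, or 2.09-fold. From 0 to 96 hr it had changed by 0.05, and the last step exceeded the step before by 0.95 ± 0.14 (SE, adjusted p = 0.00686). The Cy3 signal was 531 at 96 hr, where 2 of 3 arrays were above the negative controls, and 646 at 120 hr. Usp18, the protease that removes ISG15, read -2.81, -3.04 and -3.08 (96 hr) and -2.12, -2.06 and -2.01 (120 hr), with a change of 0.91 ± 0.11 (SE), adjusted p = 8.69e-05. Parp9 changed by 0.77 ± 0.07 (SE), adjusted p = 9.41e-06, and B2m, the light chain of MHC class I, by 0.62 ± 0.07 (SE), adjusted p = 8.27e-05. At 96 hr the mean Cy3 signal was 562 for Usp18 and 638 for Parp9, not far above the negative controls (522 to 529), and 2100 for B2m. B2m lost its call with median centring (0.48, adjusted p = 0.0742), with the Cy3 signal alone (0.52) and with the bleaching correction (0.55).

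Adar, which edits adenosine in double-stranded RNA, changed by 0.83 ± 0.21 (SE), adjusted p = 0.0259, but its arrays overlapped (0.23, 0.62 and 0.85 on the 96 hr arrays and 0.83, 1.51 and 1.84 on the 120 hr arrays), and the call was lost in 6 alternatives, among them the fits without replicate 1 at 96 hr (adjusted p = 0.136) and without replicate 3 at 120 hr (0.163). The mean Cy3 signal of Adar was 545 at 96 hr, where 2 of 3 arrays were above the negative controls, and 675 at 120 hr. H2-Bl, an MHC class I-like gene, was not on the list and read 1.24, 1.44 and 1.53 (96 hr) and 2.14, 2.44 and 2.49 (120 hr), a change of 0.95 ± 0.10 (SE), adjusted p = 2.65e-05. It remained below its mean of 2.84 at 0 hr. Cxcl10, an interferon-induced chemokine, was at -1.070, -0.996 and -1.070 (96 hr) and -1.93, -1.86 and -1.97 (120 hr) and changed by -0.88 ± 0.08 (SE), adjusted p = 7.61e-06. At 120 hr it was above the negative controls on 0 of 3 arrays, so its fall was measured down to that level. Other members stayed near 0, such as Ifit3 with 0.08, Stat2 with -0.001 and Psmb8 with 0.04, none of which passed.

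The 250 bases before the start of Isg15 (RefSeq, GRCm38.p6, minus strand, chr4:156200819-156201068), B2m (plus strand, chr2:122147437-122147686) and Cxcl10 (minus strand, chr5:92348890-92349139) are shown because these genes moved on the fifth day and each window holds letters of the ISRE. Capitals mark a pair of GAAA repeats with any 2 bases between them, searched on both strands, and in Isg15 3 such sites overlap.
Isg15: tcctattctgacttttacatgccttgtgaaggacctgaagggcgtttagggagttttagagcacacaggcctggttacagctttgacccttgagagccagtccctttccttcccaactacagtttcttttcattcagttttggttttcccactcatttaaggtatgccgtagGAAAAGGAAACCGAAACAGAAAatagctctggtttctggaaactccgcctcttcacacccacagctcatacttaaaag
B2m: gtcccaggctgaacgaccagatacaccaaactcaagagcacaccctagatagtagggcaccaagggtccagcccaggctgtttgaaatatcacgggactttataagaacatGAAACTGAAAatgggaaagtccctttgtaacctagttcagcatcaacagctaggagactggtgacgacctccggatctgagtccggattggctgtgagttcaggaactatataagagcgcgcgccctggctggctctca
Cxcl10: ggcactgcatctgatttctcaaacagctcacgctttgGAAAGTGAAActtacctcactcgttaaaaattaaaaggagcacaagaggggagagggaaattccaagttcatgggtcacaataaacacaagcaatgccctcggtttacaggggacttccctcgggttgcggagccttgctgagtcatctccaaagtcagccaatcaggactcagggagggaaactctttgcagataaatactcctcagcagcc
Of the 6 called genes of the list 4 had a window in the table and 3 of these held the letters, as did 3.4% of all windows. Cxcl10, which fell, holds them as well. A match describes the letters and shows no binding. For the fall of the actin genes, the CArG box, the site of the serum response factor, was searched in the same way. Of the 8 called genes 4 had a window, and Acta1 and Myl9 held the box, as did 1.6% of all windows. Acta1 is shown as the gene with the largest fall (minus strand, chr8:123894776-123895025), with the box in capitals.
Acta1: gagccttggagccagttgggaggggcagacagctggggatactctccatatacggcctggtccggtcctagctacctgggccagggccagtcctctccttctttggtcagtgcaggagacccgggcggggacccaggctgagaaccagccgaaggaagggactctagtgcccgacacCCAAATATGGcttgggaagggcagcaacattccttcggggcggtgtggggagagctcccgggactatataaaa

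Several lysosome and autophagy genes rose. Lysosomes degrade proteins, sugars and lipids, and autophagy delivers the cell's own content to them. Of 47 genes on a list drawn up after the calls were seen, whose counts only describe it, 8 were called higher and 0 lower, 15 passed the adjusted p upward (31.9%, against 4.72% of all genes with a symbol) and 0 downward, and 41 had a higher mean at 120 hr. The median of the list was 0.27, after 0.27 in the step before. Over all genes with a symbol 0.585% were called higher and 0.257% lower, and 3.48% passed downward. Ctsz, the protease cathepsin Z, read -0.73, -0.65 and -0.73 on the 96 hr arrays and 0.03, 0.09 and 0.11 on the 120 hr arrays, far apart, with a change of 0.78 ± 0.05 (SE), adjusted p = 4.26e-07. Gabarapl1, which marks autophagosomes, changed by 0.72 ± 0.06 (SE), adjusted p = 7.38e-06. Ctns, the cystine carrier of the lysosome, read 0.94, 1.10 and 1.11 (96 hr) and 1.63, 1.65 and 1.69 (120 hr) (0.61 ± 0.07 SE, adjusted p = 3.31e-05).

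Cd63, a tetraspanin of late endosomes, changed by 0.59 ± 0.11 (SE), adjusted p = 0.00288 and lost its call in 7 alternatives, among them the fits without replicate 2 at 96 hr (0.57), replicate 3 at 96 hr (0.58) and replicate 1 at 120 hr (0.48), under 1.5-fold. Plekhm1, an adaptor in lysosome fusion, changed by 0.61 ± 0.06 (SE), adjusted p = 1.25e-05, Lgmn, the protease legumain, by 0.59 ± 0.07 (SE), adjusted p = 6.33e-05, and Ulk1, a kinase that starts autophagy, by 0.58 ± 0.06 (SE), adjusted p = 1.33e-05. The calls of the list fell to 3 with the bleaching correction, to 4 with quantile normalization, to 5 without replicate 1 at both times and to 0 with median centring, where also 0 passed the adjusted p and the median was 0.15. Ctns and Plekhm1 were lost without single arrays too, Ctns without replicate 1 at 96 hr (0.55) and Plekhm1 without replicate 2 at 96 hr (0.58).

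Lipid genes moved in both directions. Of 22 cholesterol and lipid genes, 1 was called higher and 1 lower, and by the adjusted p alone 5 were higher (22.7%) and 4 lower (18.2%), where 4.72% and 3.48% of all genes with a symbol were. Over all genes with a symbol 0.585% were called higher and 0.257% lower. With median centring 0 genes of the list were called and 0 passed. Fabp5, a fatty acid carrier, read -1.45, -1.72 and -1.67 on the 96 hr arrays and -0.75, -1.01 and -0.82 on the 120 hr arrays, a change of 0.76 ± 0.07 (SE), adjusted p = 2.94e-05, and a second probe gave 0.75. It lost its call with median centring (0.55, adjusted p = 0.0567). Plin2, which coats lipid droplets, changed by 0.40 ± 0.09 (SE), adjusted p = 0.0131 and Lpl, lipoprotein lipase, by 0.46 ± 0.12 (SE), adjusted p = 0.0284. The 4 that were lower act in cholesterol synthesis or its control. Fdps, farnesyl diphosphate synthase, read -0.18, 0.02 and 0.14 (96 hr) and -0.76, -0.59 and -0.53 (120 hr) (-0.62 ± 0.13 SE, adjusted p = 0.0107). Insig1 changed by -0.50 ± 0.13 (SE), adjusted p = 0.0269 and Dhcr7 by -0.41 ± 0.05 (SE), adjusted p = 6.21e-05. The call of Fdps was lost with the authors' values (adjusted p = 0.106), with the bleaching correction (0.0725), with median centring (0.365), and without replicate 3 at 96 hr (0.0611) and without replicate 1 at 120 hr (a change of -0.55).

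Acadl and Oxct1 rose among genes of fatty acid oxidation and ketone use. Acadl, which oxidizes long-chain fatty acids, stood at 0.00, -0.16 and -0.12 on the 96 hr arrays and 0.65, 0.65 and 0.62 on the 120 hr arrays, with a change of 0.73 ± 0.06 (SE), adjusted p = 1.04e-06. Oxct1, which lets cells use ketone bodies, read 0.14, 0.13 and 0.10 (96 hr) and 0.71, 0.73 and 0.80 (120 hr) and changed by 0.63 ± 0.04 (SE), adjusted p = 9.03e-07. Oxct1 lost its call with median centring (0.44, adjusted p = 0.273), with quantile normalization (0.55) and with the bleaching correction (0.56). These 2 were 10% of the 20 genes, where 0.585% of all genes with a symbol were called higher and 4.72% passed upward. The list was drawn up after the calls were seen, so its counts only describe it. The other 18 genes did not pass, and the median was 0.12.

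Histone genes of different classes passed in different directions. Of 44 replication-dependent histone genes 3 were called higher, 8 passed the adjusted p upward and 6 downward (10 with the replicate block), and the median was -0.16, where 0.585% of all genes with a symbol were called higher and 4.72% passed upward, and 3.48% passed downward. Median centring turned the balance, with 1 called higher and 4 lower. The called genes were H2bc4, with -1.13, -1.39 and -1.45 on the 96 hr arrays and -0.26, -0.38 and -0.36 on the 120 hr arrays and a change of 0.99 ± 0.11 (SE), adjusted p = 4.62e-05, the linker histone H1f2 (0.70 ± 0.07 SE, adjusted p = 1.33e-05) and H2ac18 (0.60 ± 0.06 SE, adjusted p = 1.01e-05), for which a second probe gave 0.21. H1f2 lost its call with median centring (adjusted p = 0.0731) and H2ac18 in 5 alternatives, among them the fits without replicate 3 at 96 hr and without replicate 3 at 120 hr (0.58 in both). The 6 that passed downward were all H3 genes, for example H3c6 with -0.38 and H3c7 with -0.35. Histone genes are near copies of each other and probes can share signal, so single genes are uncertain.

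Imprinted genes of the placenta gave 1 call of 28, upward, with a median of 0.10, where 0.585% of all genes with a symbol were called higher. By the adjusted p alone 4 passed upward (14.3%) and 1 downward (3.57%), against 4.72% and 3.48% of all genes with a symbol. With median centring 0 passed. Dlk1, a paternally expressed membrane protein of the Notch ligand family, read -2.66, -2.69 and -2.71 (96 hr) and -2.10, -2.02 and -2.06 (120 hr), and its change was 0.63 ± 0.09 (SE), adjusted p = 3.43e-04. The call was lost with median centring (0.53, adjusted p = 0.143) and with the bleaching correction (0.54, adjusted p = 0.0581), where the list had 0 calls. H19 had an interval of 0.04 to 0.38 and Igf2 of -0.05 to 0.44, with overlapping arrays in both.

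Further genes had large changes outside these lists. Itm2a, an integral membrane protein, read 1.66, 1.74 and 1.68 on the 96 hr arrays and 2.54, 2.54 and 2.60 on the 120 hr arrays (0.87 ± 0.06 SE, adjusted p = 9.03e-07) and had risen by 0.88 on the day before. Oaf, a secreted protein, was at -0.84, -0.72 and -0.78 (96 hr) and -0.11, 0.07 and 0.10 (120 hr) (0.80 ± 0.07 SE, adjusted p = 7.48e-06). Arhgef6, an exchange factor for Rac and Cdc42, changed by 0.79 ± 0.09 (SE), adjusted p = 3.07e-05, S100a13, a calcium-binding protein, by 0.79 ± 0.11 (SE), adjusted p = 3.24e-04, and Cables1, a regulator of cyclin-dependent kinases, by 0.81 ± 0.14 (SE), adjusted p = 0.00229. The call of Cables1 was lost with median centring (adjusted p = 0.0907) and with the bleaching correction (0.242).

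Large falls outside the lists were those of Lrp2, Gsta4, Eif1ax, Uchl1 and Slc35g1. Lrp2, the endocytic receptor megalin, read 3.41, 3.46 and 3.56 on the 96 hr arrays and 2.24, 2.57 and 2.55 on the 120 hr arrays, with a change of -1.03 ± 0.10 (SE), adjusted p = 2.65e-05. Gsta4, a glutathione transferase, was at -0.79, -0.76 and -0.73 (96 hr) and -1.64, -1.68 and -1.76 (120 hr) (-0.93 ± 0.07 SE, adjusted p = 1.52e-06) after -1.24 on the day before. Eif1ax, an initiation factor of translation, changed by -0.90 ± 0.07 (SE), adjusted p = 9.03e-07 after -0.78, Uchl1, a deubiquitinase, by -0.81 ± 0.05 (SE), adjusted p = 2.34e-07 after -0.55, and the membrane carrier Slc35g1 by -0.70 ± 0.13 (SE), adjusted p = 0.00407. Slc35g1 lost its call with median centring (adjusted p = 0.0727) and with the Cy3 signal alone (0.0637).

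Markers of primitive endoderm, mesoderm, and neural and ectoderm lineages gave no call, while fibroblast and feeder markers gave 1 upward and 1 downward. Of 20 primitive endoderm, 13 mesoderm and 12 neural and ectoderm markers, 0 were called and 0 passed the adjusted p in either direction, with medians of 0.03, -0.003 and -0.02. At 120 hr 14 of the 20, 6 of the 13 and 7 of the 12 were above the negative controls on all 3 arrays. Gata6, a factor of primitive endoderm, had an interval of -0.26 to 0.07. Of 11 fibroblast and feeder markers, Postn (periostin, 0.65 ± 0.14 SE, adjusted p = 0.00947) was called higher and Tagln lower, while Col1a1, Col1a2 and Dcn changed by 0.04, 0.02 and 0.06. Over all genes with a symbol 0.585% were called higher and 0.257% lower. The summed linear ratios of the fibroblast markers were 6.54 to 6.79 at 96 hr and 6.61 to 6.7 at 120 hr. Postn lost its call with an offset of 0 (adjusted p = 0.559), with median centring (0.131), with the bleaching correction (0.127), without replicate 3 at 120 hr (0.056) and with quantile normalization (a change of 0.55).

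Hypoxia and stress genes gave 0 calls. Of 22 hypoxia and glycolysis genes 2 passed the adjusted p upward (9.09%) and 1 downward (4.55%), where 4.72% and 3.48% of all genes with a symbol did. Ndrg1, which hypoxia and differentiation induce, changed by 0.56 ± 0.05 (SE), adjusted p = 1.01e-05, the glucose carrier Slc2a1 by 0.46 ± 0.07 (SE), adjusted p = 8.76e-04, and the glucose carrier Slc2a3 by -0.40 ± 0.07 (SE), adjusted p = 0.00249. Of 18 stress genes 3 passed upward (16.7%, against 4.72% of all genes with a symbol), namely Atf3 with 0.52, Herpud1 with 0.49 and Gadd45a with 0.42. With the replicate block 5 stress genes passed upward, and with median centring 0. Their part in the other results was not tested.

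**Figure D4:**
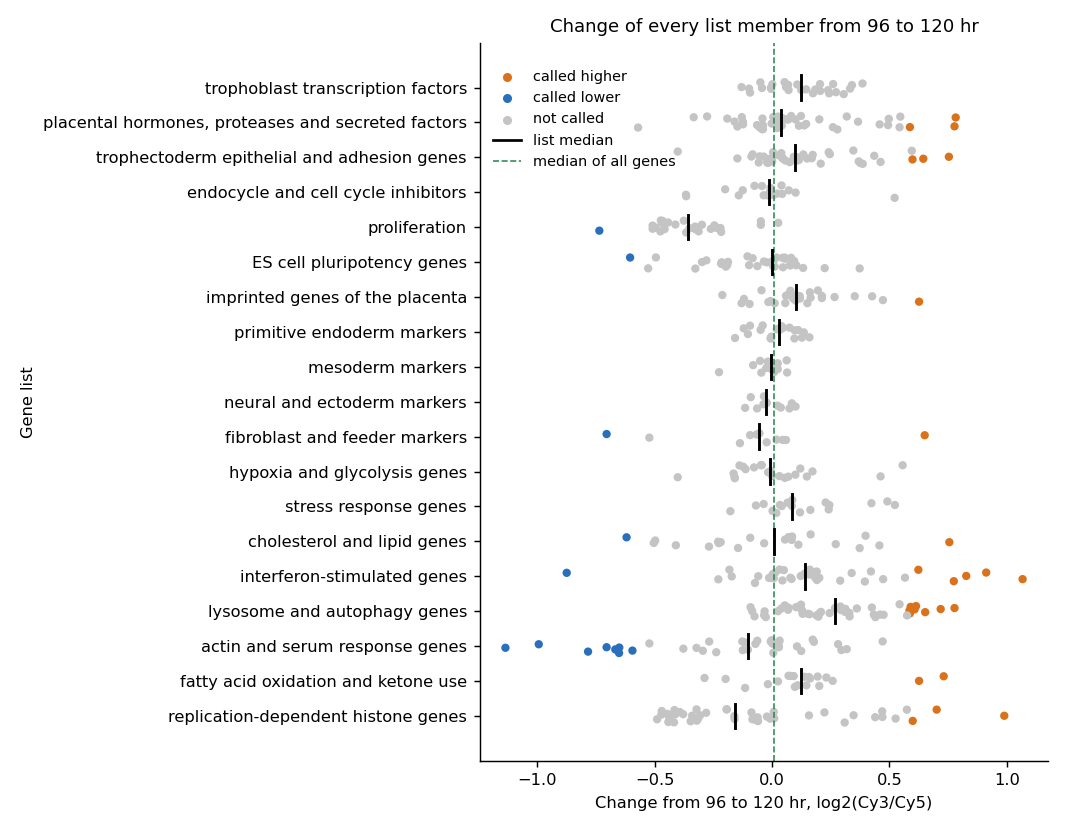
Change of every list member from 96 to 120 hr in log2(Cy3/Cy5) (x axis) for the 19 gene lists (y axis), with genes called higher in orange, genes called lower in blue and others in gray. Black bars are list medians and the dashed line is the median of all genes (0.01), and most proliferation genes lie left of it and the lysosome and autophagy genes mostly right of it.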

How the data were processed

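RNA of ZHBTc4 cells was hybridized on 18 two-color Agilent arrays, 3 at each of 6 times. The authors deposited the scanner output of each array, with spot and background intensity in both channels and a log10 ratio from Agilent Feature Extraction. The series-wide values are the authors' normalized log10 Cy3 signals, with a correction for bleaching of Cy5, and served as an alternative. Here the mean signals were background-corrected (normexp, offset 50) and normalized within arrays by loess with control spots at weight 0, outlier spots were left out, saturated spots were kept, and log2(Cy3/Cy5) was fitted over the 18 arrays with limma 3.58.1 (R 4.3.3). P-values were adjusted by Benjamini-Hochberg over all probes, and calls needed an adjusted p of at most 0.05 with a change of at least 1.5-fold. A gene was represented by its brightest probe, and an unnamed transcript counted singly. Of 21052 gene probes 9452 had no symbol, 10422 were named by RefSeq accession and 1178 through tables of the study. The dyes were not swapped, so a dye effect cancels only between times. The scripts were tested on simulated data.

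The gene lists and the genes always named were chosen with earlier results of these data known, and the interferon, lysosome, actin, fatty acid and histone lists after the calls were seen. Named genes were the 12 largest rises and falls with a symbol, no overlap and a signal over that of 95% of the negative controls, the called members of the lists and the genes always named. Other genes were named after their values were seen. Residuals of same-numbered arrays at 96 and 120 hr correlated with r of 0.757, 0.482 and 0.562, and each array correlated best with its own number, so the numbers were taken to pair these arrays. The main fit, with its standard errors and adjusted p, had no term for this pairing, which entered only in the replicate block. Over all 6 times the 45 same-numbered pairs had a mean r of 0.155, from -0.429 to 0.757, so the numbers may not pair the arrays of other times. Alternatives were the processed signals, another offset, median centring, quantile normalization, the Cy3 signal alone, the bleaching correction, the authors' values, a filter on dim probes, every probe, a trended prior, only the arrays compared, the replicate block, other fold limits and leaving out arrays. The replicate block on 6 arrays and leaving out both replicate 1 arrays were added after seeing the data. Some called or tested list members are not reported here by name.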

Additional observations from a re-analysis of the deposited data

Results flagged for a closer look

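The change from 96 to 120 hr differed from the change from 72 to 96 hr, by a contrast of both steps in the limma fit, for 7 of the named genes. Acta1 (difference -1.80, adjusted p = 6.76e-05), Ccn1 (-1.13, adjusted p = 0.0459), Thbs1 (-1.05, adjusted p = 0.00183), Tubb6 (-0.88, adjusted p = 0.0165) and Tnfrsf12a (-0.65, adjusted p = 0.0494) had lower last steps. Isg15 (0.95, adjusted p = 0.00686) and the linker histone H1f2 (0.65, adjusted p = 0.039) had higher last steps. Both steps use the 3 arrays at 96 hr, so an error in their mean enters the difference from both sides. With both replicate 1 arrays left out, 22 genes differed in place of 34.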

How the results depend on the processing

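Of 68 named genes 47 were called, 21 of these in every alternative other than the changed fold limits, and 0 turned their sign while called. The signs of 5 that were not called (Krt7, Krt18, Cdkn1c, Cdx2 and Esx1) turned in some alternative. The counts were 87 higher, 32 lower, 6 trophoblast genes higher and 34 genes with differing steps. Median centring gave 36 higher, 2 trophoblast genes and 5 differing steps, quantile normalization 56 higher and 58 differing steps, the bleaching correction 50 higher and 12 differing steps, the Cy3 signal alone 163 higher and an offset of 0 51 lower. A 2-fold limit gave 4 higher, 2 lower, 0 trophoblast genes and 8 differing steps, and no fold limit 704, 471 and 21. Leaving out 1 array gave 67 to 143 higher, 24 to 36 lower, 5 to 7 trophoblast genes and 12 to 30 differing steps. The 143 came without replicate 1 at 120 hr, and the differing steps were 17 without replicate 2 at 96 hr, 12 without replicate 3 at 96 hr and 19 without replicate 3 at 120 hr. Without both replicate 1 arrays 22 steps differed. The cause was not tested. The replicate block gave 90 higher, 32 lower, 7 trophoblast genes and 38 differing steps, and moved none of these 4 counts by over 1.5 times, though it moved those of histone genes passing downward (6 to 10), stress genes (3 to 5) and ES cell genes (0 to 1) passing upward. A block by scan date was not run, since the files give only an extraction time. The precision is limited by 3 arrays a time, and genes near the negative controls had little room to fall.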
